A study of Homo sapiens with 14 samples.

Results

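The 11q13 region around CCND1, ANO1, FADD and CTTN held 41 KMT2D peaks of the 13808 in the list. Peaks were taken by position alone: the summit lay on chromosome 11 between 68.5 and 71.0 Mb of hg19 (GRCh37). The list came from a single ChIP-seq library of SCC23 cells, an established line from a squamous cell carcinoma of the head and neck (HNSCC), with wild-type KMT2D and without glucose for 6 hours. The antibody was directed against KMT2D, a histone methyltransferase that acts mainly at enhancers. The series had 14 sample labels, each a single library, and the other 13 (an input, and libraries of histone marks and H3 in wild-type and KMT2D knockout cells) were not analysed here. Without a replicate, no difference between peaks or regions was tested across libraries, and all intervals below are 95% intervals that cover counting error only.

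This part of chromosome 11 is known for copy gains in head and neck cancers, in which the 4 genes are often gained together. CCND1 encodes cyclin D1, which activates CDK4 and CDK6 and drives cells through G1. ANO1 encodes a calcium-activated chloride channel. FADD encodes the adaptor that links death receptors to caspase-8, and CTTN encodes cortactin, an actin-binding protein of the cell cortex and of invasive protrusions. In the order of RefSeq genes, CPT1A, MRPL21, IGHMBP2, MRGPRD, MRGPRF, TPCN2, SMIM38 and MYEOV precede CCND1. LTO1, FGF19, FGF4 and FGF3 lie between CCND1 and ANO1, PPFIA1 lies between FADD and CTTN, and SHANK2 follows CTTN. Copy number in SCC23 was not analysed here. The list bears on it only through the control reads that set the local background of each peak.

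The RefSeq promoter table held 2 of the 4 members, FADD and ANO1. Their promoters are shown because FADD had a KMT2D peak close to its start and ANO1 had none in or near the interval used for it. The RefSeq ANO1 start printed here lies 217.4 kb before that of FADD, against 125.0 kb for the starts used to place peaks. It is thus a start 92.4 kb farther upstream, and the distances to ANO1 given below are not from it. Each runs from 250 bases before to 50 bases after the start on the plus strand of GRCh38.p14, at chr11:70203046-70203345 for FADD and at chr11:69985657-69985956 for ANO1. Capitals mark the GC box (GGGCGG) and the AP-1 motif (TGANTCA) on either strand.
FADD: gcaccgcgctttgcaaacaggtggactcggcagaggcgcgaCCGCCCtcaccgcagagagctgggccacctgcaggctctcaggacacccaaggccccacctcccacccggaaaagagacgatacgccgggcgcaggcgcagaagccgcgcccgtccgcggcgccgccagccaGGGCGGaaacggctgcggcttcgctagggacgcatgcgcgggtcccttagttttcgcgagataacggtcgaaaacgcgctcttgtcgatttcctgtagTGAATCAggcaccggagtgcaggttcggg
ANO1: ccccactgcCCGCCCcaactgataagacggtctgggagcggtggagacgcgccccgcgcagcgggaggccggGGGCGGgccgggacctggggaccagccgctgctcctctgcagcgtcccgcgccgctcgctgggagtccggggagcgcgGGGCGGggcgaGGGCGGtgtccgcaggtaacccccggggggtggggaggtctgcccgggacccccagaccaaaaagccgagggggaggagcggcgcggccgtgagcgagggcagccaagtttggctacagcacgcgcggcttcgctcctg
Both promoters held 36 CpG dinucleotides, against a median of 14 over all promoters of the table, and 87.3% of promoters held fewer. The GC box was matched 2 times in FADD and 4 times in ANO1, and 15786 of the 35116 promoters held it. The AP-1 motif, with any base allowed at N, was matched in FADD only (as TGAATCA), against 7.71% of all promoters. The TATA motif (TATAAA, in 11.5% of promoters) was not matched in either. These letters are a description of the sequence, since the peaks themselves were placed on hg19 and were not joined to it.

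The peaks were spread unevenly over the region. In the split at the CCND1 start, the peak closest to that start was counted as before it. Before the CCND1 start, 29 peaks lay in 0.956 Mb, or 30.3 per Mb (exact Poisson interval 20.3 to 43.6). From the CCND1 start on, 12 peaks lay in 1.544 Mb, or 7.77 per Mb (4.02 to 13.6). The Poisson intervals take peaks as independent, although some lay close together. With peaks within 1000 bp counted once, the whole region held 33 peaks (13.2 per Mb). The other densities given here count each peak separately and are not comparable with this one. The 13136 peaks on chromosomes 1 to 22 and X are called the genome-wide list below. The whole region had 16.4 peaks per Mb (11.8 to 22.2), against 5.50 (5.10 to 5.92) on the rest of chromosome 11 and 4.48 (4.40 to 4.56) on all of these chromosomes outside it. Of 1142 other windows of the same length, 97.0% held fewer peaks. Windows without a peak were counted, and sequence to which no read can be aligned was left in these windows and spans. The median window held 7. The fullest, with 120, lay on the same chromosome at 65.0 to 67.5 Mb, so that a high density was also found 1.0 Mb before the region.

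**Figure D1:**
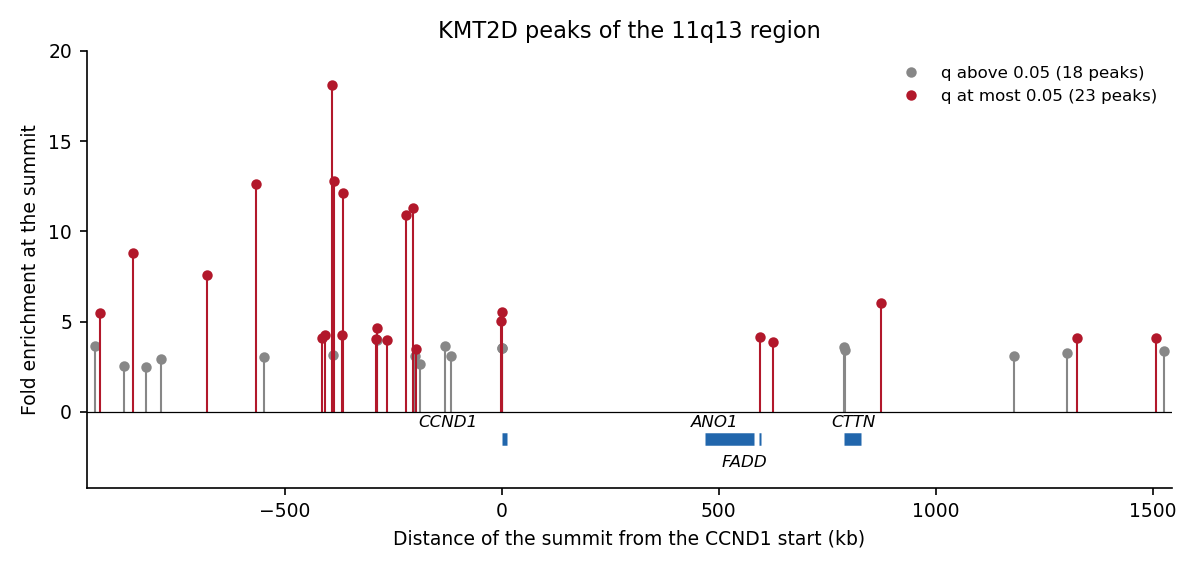
Fold enrichment at the summit (vertical axis, from 0) of the 41 peaks against distance from the CCND1 start in kb, with the 4 genes as blue bars. Red points have a q-value of 0.05 or less and grey points do not. The 6 peaks of at least 10 all lie to the left of CCND1, and no peak lies between CCND1 and FADD.

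**Figure D2:**
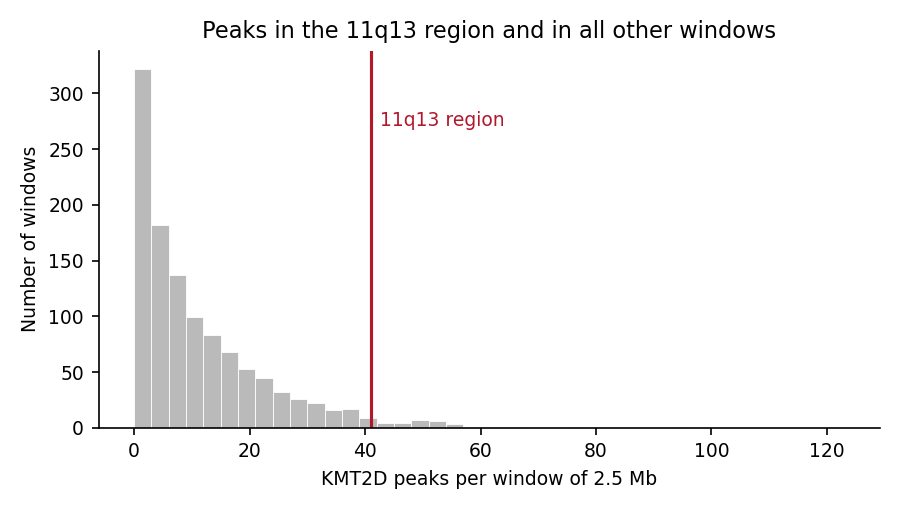
Number of KMT2D peaks in each window of 2.5 Mb on chromosomes 1 to 22 and X (grey bars), with the 41 peaks of the 11q13 region as a red line. The line lies far to the right of the median window, which held 7.

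The strongest KMT2D peaks of the region lay well upstream of CCND1 and not at any of the 4 genes. The fold enrichment divides the ChIP pileup at the summit, after scaling, by its local background, and a pseudocount of 1 is added to both. A fold enrichment of at least 10, a threshold chosen after the values were seen, held for 6 of the 41 peaks (14.6%, Wilson interval 6.88 to 28.4%), against 4.39% of the genome-wide list. All 6 lay between 566 and 204 kb before the CCND1 start. They held 549 of the 1446 fragments summed over the summits of the region (38.0%). Of the other windows of the same length, 99.1% held fewer than 6 such peaks. This rank makes no allowance for the number of peaks, which was 41 in the region and 7 in the median window. The most peaks of at least 10 in a window, also 10, were again at 65.0 to 67.5 Mb of chromosome 11.

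The highest fold enrichment was 18.1, at positions 69064243 to 69066648, where 115 fragments (94.9 to 138) lay over the summit against 3.86 that the local background gives. It ranked 23 of 13136 in the genome-wide list. With 2406 bp it was also the widest peak of the region. Its summit lay 391 kb before the CCND1 start. It opened a cluster of 3 peaks, stitched over gaps of up to 12500 bp, that spanned 5.65 kb and was covered by peaks over 66.3% of that length. The other strong peak of this cluster, at positions 69068873 to 69069896, had a fold enrichment of 12.8 and 98 fragments (79.6 to 119). The small peak between them had 3.18 and 18 fragments, and did not reach a q-value of 0.05.

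A peak at positions 69088843 to 69089687, 367 kb before CCND1, had a fold enrichment of 12.1 with 64 fragments (49.3 to 81.7). Its background was at the genome-wide level. The peak farthest from CCND1 among the 6, at positions 68890020 to 68891037, had 12.6 and 73 fragments (57.2 to 91.8). The intervals of these 2 fragment numbers overlapped.

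Nearest to CCND1 among the 6, the peak at positions 69251791 to 69252557 had 116 fragments (95.9 to 139), the highest number of the region, and a fold enrichment of 11.3. Its background gave 7.88 fragments, against 3.86 at the peak with 115 fragments. The peak at positions 69235046 to 69235702 had 10.9 and 83 fragments (66.1 to 103). The next in rank were 8.81 at 849 kb, 7.56 at 680 kb before the CCND1 start and 6.04 at 872 kb after it, and the tenth was the peak at the CCND1 start.

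Across the region, fold enrichment ran from 2.48 to 18.1 with a median of 3.99 (order-statistic interval 3.56 to 4.27). The median was 4.01 on the rest of chromosome 11 and 4.01 in the rest of the genome-wide list, both inside this interval. Of the 41 peaks, 23 had a q-value of 0.05 or less (56.1%, 41.0 to 70.1%), against 58.8% of the genome-wide list. Before the CCND1 start it was reached by 18 of 29 and from it on by 5 of 12. Peaks wider than 1000 bp numbered 5 (12.2%, 5.32 to 25.5%), against 5.63% of the genome-wide list, and all 5 summits lay before or at the CCND1 start.

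CCND1 carried a group of 4 peaks that together covered 77.7% of the 5.36 kb from 3.10 kb before its start to 2.27 kb after it. All 4 genes lie on the plus strand, and their limits were given to the nearest kb, so that distances to a start carry an uncertainty of 0.5 kb. The peak at the start, at positions 69455009 to 69456201, had its summit 0.243 kb from it, on a side that the rounding leaves undetermined. It held 28 fragments (18.6 to 40.5) against 2.89 from the background, and its fold enrichment was 5.55. The peak before it, at positions 69452904 to 69454698, held 50 fragments (37.1 to 65.9) against 7.88 and had a fold enrichment of 5.01. Both reached a q-value of 0.05, with a −log10 q of 4.0 and 6.26.

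Inside CCND1, the peaks at positions 69456505 to 69457012 and 69457596 to 69458265 each held 17 fragments (9.90 to 27.2). Each had a fold enrichment of 3.56 and a −log10 q of 0.663, and so did not reach a q-value of 0.05. The next summit upstream of the group lay 114 kb from its first summit.

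No peak lay in or within 10 kb of the ANO1 interval. The nearest summit was 14.1 kb past its end, and that peak lay in the FADD interval. Upstream of the ANO1 start, 466 kb separated it from the last summit inside CCND1. The RefSeq gene is longer (223.5 kb) than the interval used here (112.0 kb), by 111.5 kb. It is also longer than the 217.4 kb between the RefSeq starts of ANO1 and FADD. By these lengths the longer gene runs past the FADD start, and the FADD summit, 1.11 kb after that start, would lie inside it. No coordinate was converted between builds, so this rests on lengths and spacing alone. In all, 592.4 kb from CCND1 to FADD held no summit, which takes in the places of LTO1, FGF19, FGF4 and FGF3 in the gene order. On chromosome 11, 49 of 739 intervals between neighbouring summits (6.63%) were at least as long, and in the genome-wide list 1081 of 13113 (8.24%).

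FADD carried 1 peak, at positions 70049826 to 70050293, with its summit 1.11 kb after the start. It held 30 fragments (20.2 to 42.8) against 5.26 and had a fold enrichment of 4.14 and a −log10 q of 2.44. The next peak lay 25.7 kb past the end of FADD, at positions 70079614 to 70079873, with 28 fragments and a fold enrichment of 3.86.

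CTTN carried 2 weak peaks close to its start. The summit of the peak at positions 70244627 to 70244825 lay 0.269 kb from the start, which is within the uncertainty of its place, so that its side of the start cannot be given. It had 19 fragments (11.4 to 29.7) against 3.37 and a fold enrichment of 3.60. The summit of the peak at positions 70245930 to 70246133 lay 1.02 kb after the start, with 23 fragments (14.6 to 34.5) against 4.82 and a fold enrichment of 3.44. Neither reached a q-value of 0.05 (−log10 q of 1.03 and 0.721). The fragment intervals at CTTN, FADD and the peak at the CCND1 start overlapped, so that an order of these peaks by fragments was not detectable at this depth. The interval of the peak 2.27 kb before the CCND1 start (50 fragments, 37.1 to 65.9) lay above those of both CTTN peaks. It overlapped that of the FADD peak.

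**Figure D3:**
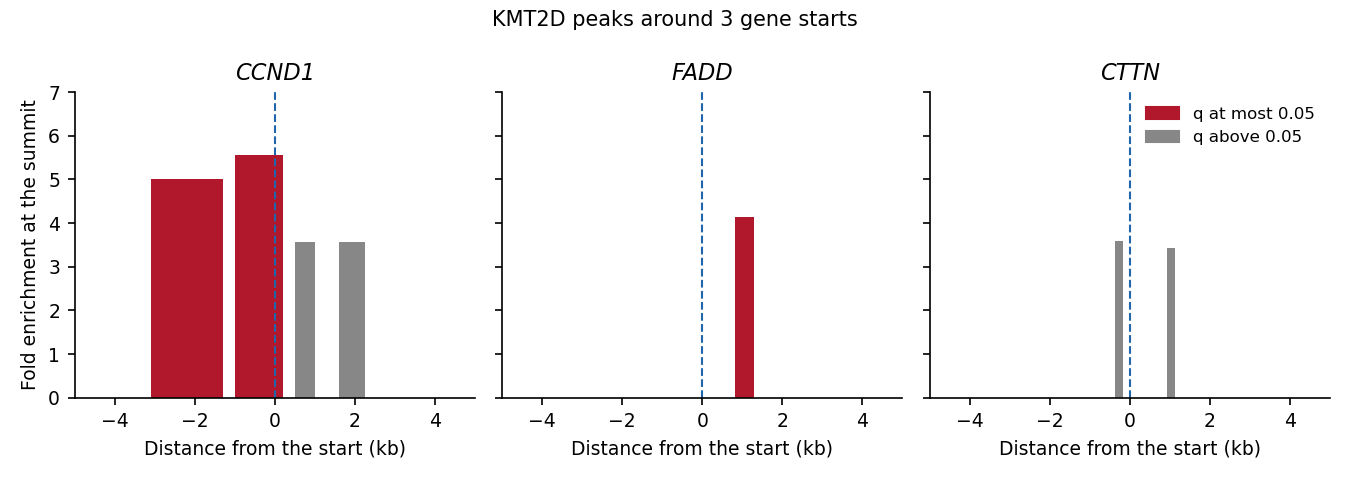
KMT2D peaks within 5 kb of the starts of CCND1, FADD and CTTN, drawn from 0 to their fold enrichment and over their width, with the start as a dashed line. Red peaks reached a q-value of 0.05. Starts are drawn at the nearest kb. The CCND1 peaks lie around its start, the FADD peak (4.14) lies after it, and both CTTN peaks are grey.

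Over the 4 genes with 10 kb to either side, 7 peaks had a fold enrichment between 3.44 and 5.55, with a median of 3.60. Of these, 3 reached a q-value of 0.05, against 58.8% of the genome-wide list. A fold enrichment of at least 10 was found at 0 of the 7, against 4.39%, and 7 peaks are too few to tell these shares apart. Past CTTN, 6 peaks lay in the 717 kb that lead through the place of SHANK2. The strongest of them, at positions 70328199 to 70328534 and 45.4 kb past the CTTN end, had a fold enrichment of 6.04 with 45 fragments (32.8 to 60.2). The other 5 lay between 3.12 and 4.11.

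At the limits of the region, the last summit outside lay 55.0 kb before it and had a fold enrichment of 7.16. The first inside had 3.66 and the last inside 3.39. The first summit beyond the far limit, 10.6 kb away, had a fold enrichment of 16.5 and 97 fragments.

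The 41 peaks fell partly into clusters of at least 3 peaks. There were 4 clusters, all before or at CCND1, and they held 14 peaks (34.1%, 21.6 to 49.5%), against 33.8% of the genome-wide list. Besides the group at CCND1 and that with the strongest peak, 3 peaks lay 290 to 287 kb and 4 peaks 204 to 188 kb before the CCND1 start. The former had fold enrichments of 3.97 to 4.63. The latter held the peak of 11.3 and 3 weaker ones of 2.65 to 3.48.

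**Figure D4:**
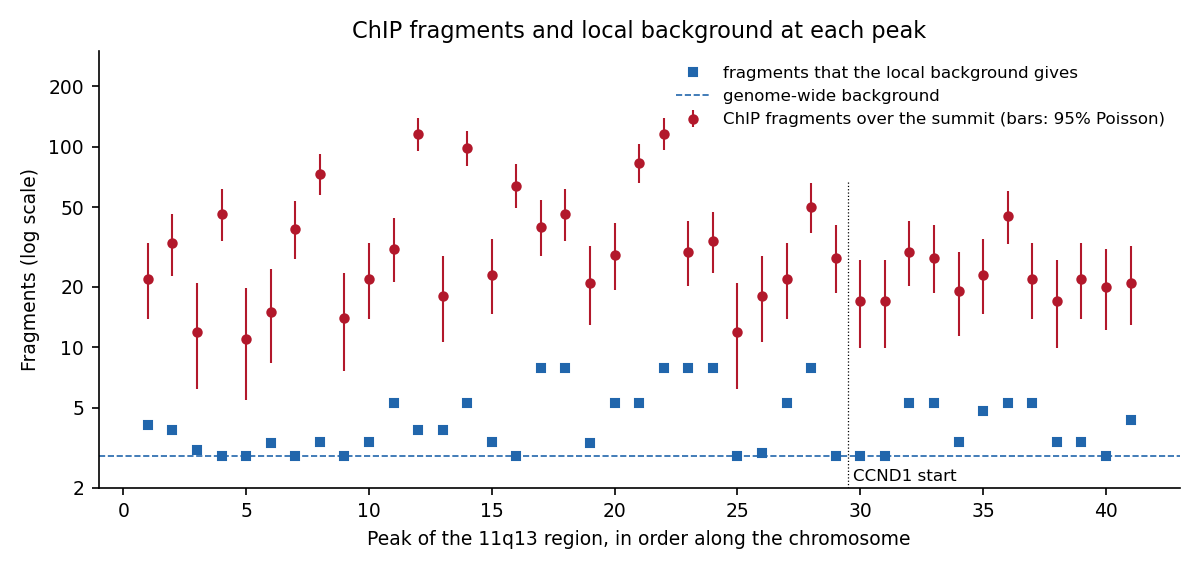
ChIP fragments over the summit (red, with 95% Poisson intervals) and the fragments that the local background gives (blue squares) for the 41 peaks in order along the chromosome, on a log axis. The background stays between 2.88 and 7.88 fragments while the ChIP fragments run from 11 to 116.

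Whether the block was raised in the control was read from the local background, which fold enrichment and p-value together determine at each summit. MACS2 takes this background as the highest of the genome-wide level and of the control in windows of the fragment length, 1 kb and 10 kb, so it cannot fall below the genome-wide level. In the region it lay between 1.00 and 2.74 times that level, with a median of 1.34 (1.16 to 1.83). The median was also 1.34 (1.24 to 1.47) on the rest of chromosome 11, and it was 1.11 (1.11 to 1.14) in the rest of the genome-wide list. Of 456 other windows with at least 10 peaks, 73.0% had a lower median. A background raised 2 times or more was found at 6 of the 41 peaks (14.6%, 6.88 to 28.4%), against 15.2% of the genome-wide list and 26.9% on the rest of chromosome 11. The share and the median for the rest of chromosome 11 include a long run described below. All 58 peaks of that run were raised, among the 188 raised of 699. At a threshold of 1.5 times the share was 41.5%, against 35.1% in the rest of the genome-wide list. At 2 times, the share of raised peaks was thus near that of the whole list, while the median was above that of the rest of the list and equal to that of the rest of chromosome 11.

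At all 6 raised peaks the value was 2.74, set by 3 control fragments over the summit itself and not by a wider window. They lay in 3 places: 2 in the cluster 290 kb before CCND1, 3 in that 204 kb before it, and the peak 2.27 kb before the CCND1 start. All 6 had at least 25 ChIP fragments. Among the 21 peaks of the region with fewer than 25 fragments, 0 were raised and the median was 1.17. In the rest of the genome-wide list, 27.7% of peaks with 25 fragments or more were raised and 2.22% of those with fewer. Of the 20 peaks of the region with 25 fragments or more, 6 were raised (30.0%). The p-value threshold of the list is set against this same background, so a peak with a raised background had to hold more fragments to be listed. The fewest were 16 among raised peaks and 11 among the others of the genome-wide list. The split by fragments is therefore in part fixed by the peak call.

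The background also gave an upper limit for the control in the 10 kb around a summit, in which the genome-wide level is 59.7 fragments. At 7 peaks (17.1%, 8.53 to 31.3%), against 37.0% of the genome-wide list, the background was at the genome-wide level, so that these windows held at most 59 control fragments. They included both peaks inside CCND1. A count at this limit of 59 would have a Poisson interval of 44.9 to 76.1, whose upper end is 1.27 times the genome-wide level. The limit is not an observed count, and these 7 peaks were picked by their low background. The interval therefore does not bound the control in the rest of the region. The limit was 60 fragments at the CCND1 start, 163 at the peak 2.27 kb before it, 70 and 100 at the CTTN peaks and 109 at the FADD peak. At the 5 peaks of the region at which only the 10 kb window could have given the background, the control held 62 to 85 fragments, up to 1.42 times the genome-wide level.

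A raised block was present elsewhere on chromosome 11. The longest run of neighbouring peaks at 2 times or more held 58 peaks, between 31.3 and 36.8 Mb past the CCND1 start. Its background ran from 2.88 to 9.13 times the genome-wide level, with a median of 5.48. All of its peaks were above the highest value of the 11q13 region. The run was chosen by this measure, so the difference was not tested. In the 11q13 region the longest such run held 3 peaks over 0.00654 Mb. The median number of ChIP fragments was 65 in the run and 23 in the 11q13 region, while the median fold enrichment was 3.96 and 3.99.

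**Figure D5:**
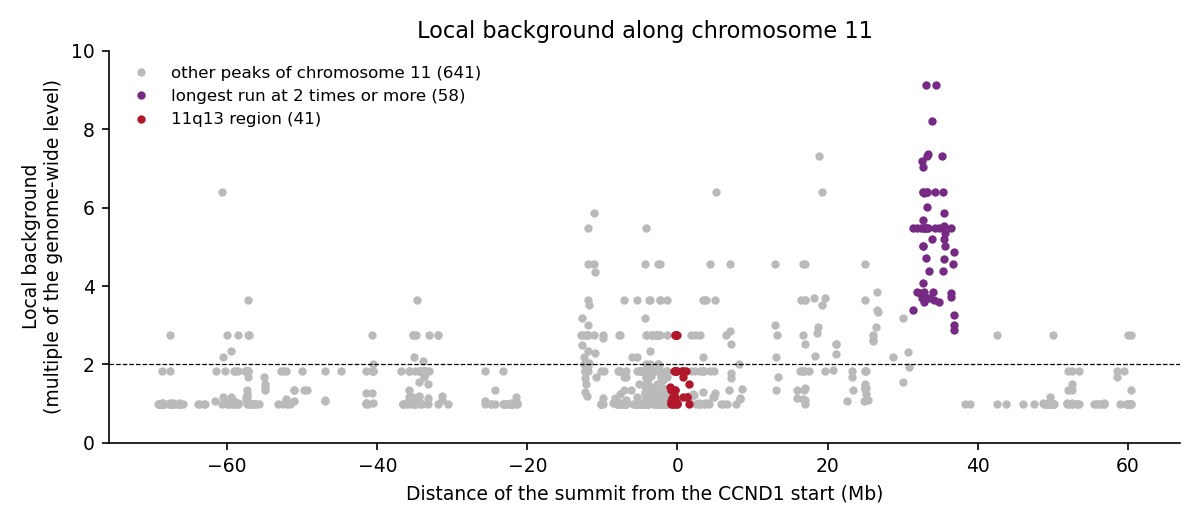
Local background, as a multiple of the genome-wide level, at each peak of chromosome 11 against distance from the CCND1 start in Mb, with a dashed line at 2. The 41 peaks of the 11q13 region (red) reach 2.74 at most, while the 58 peaks of the longest run (purple) lie between 2.88 and 9.13.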

How the data were processed

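A single peak list was analysed, from KMT2D ChIP in KMT2D wild-type SCC23 cells. The authors aligned reads by Bowtie2 to the hg19 build and ran MACS2 on the uniquely mapped ones, at a p-value threshold of 0.01; no listed peak exceeded 0.00984. The control is not named in the methods, and no pooling of libraries is stated. The deposited fold enrichment is a ratio at the summit, the deposited significance columns are −log10 of the p-value and −log10 of the q-value, and the deposited score is 10 times the former without decimals.

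ChIP fragments and background were computed jointly from fold enrichment and p-value, taking fragments as whole numbers, with 0.381 as the scale of all ChIP pileups and 2.88 ChIP fragments (1.10 after scaling) as the genome-wide level. This gave all 13808 peaks to within 0.0009 of the deposited −log10 p. Background steps gave a fragment length of 183.4 bp. The procedure was also run on 3 simulated lists. These were built with the same model of fragments and background, so they cannot show whether that model holds for these data. Library depth was not analysed here, and the range of fragments over a summit (11 to 116 in the region) limits the precision.

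Gene limits were those of the region's definition, in hg19 to the nearest kb. Gene order, lengths and promoters came from RefSeq (GRCh38.p14), with no coordinate converted. Members and lists were chosen with earlier results of these data known. Named items were the 4 genes with all peaks within 10 kb, the 10 peaks of highest fold enrichment, the widest peak, the clusters and the extremes of background. Shares carry Wilson intervals, densities and fragments exact Poisson intervals, and medians order-statistic intervals. No test was run on 1 library. Alternatives were q-value thresholds, limits of the region, background thresholds and windows, distances, merging, gaps and a measure without pseudocount. Computations ran in Python 3.11.15 with pandas 2.3.3, scipy 1.17.1 and numpy 2.4.6, and plots in matplotlib 3.10.9.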

Additional observations from a re-analysis of the deposited data

How the results depend on the processing

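No paired analysis was possible because only the peak list of 1 library was analysed. Of 46 alternative values of 10 results, 23 stayed within the range of the value reported and 23 moved. These results are counts, densities, medians, shares and ranks, which have no direction to reverse. Of 20 alternative counts at single genes, 8 moved. Fewer peaks remain under a stricter threshold by construction: 23 peaks (9.20 per Mb) with q-values up to 0.05 and 17 (6.80 per Mb) with q-values up to 0.01, against 41 (16.4 per Mb). The median fold enrichment was 5.01 and 6.04, against 3.99. In the rest of the genome-wide list it was 5.19 and 5.64, against 4.01, and no density is given for it at these thresholds. No cluster of 3 peaks was left at either threshold (0 and 0, against 4), and 0 held 5 peaks. At the 4 genes, 3 peaks were left at each q-value threshold and 4 lay inside a gene, against 7.

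From the CCND1 start to the CTTN end only, there were 6 peaks (7.26 per Mb), of which 33.3% reached a q-value of 0.05 and 0% had a raised background. With 1 Mb more on either side there were 67. Without a pseudocount the median ratio was 5.90.

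At 2 times the genome-wide level the raised share was 14.6%, against 15.2% in the rest of the genome-wide list. At 1.5 and 3 times it was 41.5% and 0%, against 35.1% and 5.86%. It was thus below the rest of the list at 2 and 3 times and above it at 1.5 times. It was 21.7% and 23.5% at the 2 q-value thresholds, against 17.3% and 17.7%, and the median background rose from 1.34 to 1.83 at both, against 1.17. It was 0% among peaks with fewer than 25 fragments, against 2.22%, and 0% at the 5 peaks where only the 10 kb window could have given the background, against 3.92%, with a median of 1.16, against 1.14. A shifted grid of windows, chosen after seeing the data, left the ranks at 97.0% and 72.9%. With 11 to 116 fragments over a summit in 1 library, the list cannot show which weak peaks would recur.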
